A study of Mus musculus with 4 samples.

Results

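The miR-10 and miR-196 families are microRNAs (miRNAs) encoded inside the Hox gene clusters, and 6 of their mature forms were described here out of 1907 mature miRNAs counted in mouse liver. They are mmu-miR-10a-5p, mmu-miR-10a-3p, mmu-miR-10b-5p, mmu-miR-10b-3p, mmu-miR-196a-5p and mmu-miR-196b-5p, taken by name from the count tables. The names define the set, but it was picked from results of these same libraries, in which the level of miR-10a-5p and the fold change of miR-10b-5p between treated and control liver were already known. All values of that comparison below are therefore a description of these libraries, and their p-values support nothing further. The libraries came from livers of C57BL/6 mice aged 15 weeks. Controls (2 libraries) are labelled only as control, with no vehicle named. The other 2 libraries are from mice given thioacetamide (TAA), a liver toxin used to produce fibrosis in rodents, at 200 mg/kg by intraperitoneal injection 3 times a week for 10 weeks. The design text calls the libraries of a group biological replicates; no label ties a library to a named animal, so the spread given here is the spread between libraries.

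Hox genes are transcription factors laid out in clusters, and the part of a cluster that a cell uses reflects its position along the body axis. The miRNAs between them are expressed along similar lines. A miRNA pairs through its seed, bases 2 to 8 from the 5′ end, with sites in mRNAs and represses them. miR-196 is known for cleaving Hoxb8 mRNA, and miR-10b is best known from breast cancer cells, where it represses HOXD10. A hairpin gives a 5p and a 3p strand, of which usually one is kept in the silencing complex and the other is degraded.

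The 4 sequences that carry most of the comparison are shown because each family consists of near-identical copies; capitals mark the seed and the single base, at position 12, at which the copies differ. They are RefSeq sequences (GRCm38.p6), which were found for all 6 members.
miR-10a-5p: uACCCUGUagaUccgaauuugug
miR-10b-5p: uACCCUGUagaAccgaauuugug
miR-196a-5p: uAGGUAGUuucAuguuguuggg
miR-196b-5p: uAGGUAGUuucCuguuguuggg
Counted from the 5′ end, the change from miR-10a-5p to miR-10b-5p is U12A, with the other 22 of 23 bases identical, and that from miR-196a-5p to miR-196b-5p is A12C, with 21 of 22 bases identical. Each pair shares its seed, and among the 1623 names of the files that have a RefSeq sequence no other mature miRNA has either seed. The assignment of a read within a pair rests on 1 base, and the sources used here do not say whether mismatches were allowed in alignment. The 3p strands of the miR-10 hairpins are easier to tell apart, with 3 differences (A3G, U9A and A10U from miR-10a-3p to miR-10b-3p), of which the first lies in the seed; capitals mark the seed.
miR-10a-3p: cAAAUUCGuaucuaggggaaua
miR-10b-3p: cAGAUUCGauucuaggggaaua

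The hairpins lie in all 4 Hox clusters (GRCm38, with gene models from GENCODE). The miR-10a hairpin is at chr11:96317165-96317274 on the plus strand, in the Hoxb cluster, between annotated genes and 993 bp before Hoxb4. The miR-10b hairpin is at chr2:74726070-74726137 on the plus strand, inside introns of transcripts of Hoxd3 and Hoxd4. miR-196a-5p comes from 2 loci with the same mature sequence. One, at chr11:96265164-96265265, lies 51.9 kb from the miR-10a hairpin in the Hoxb cluster, between genes and 6192 bp from Hoxb9; the other, at chr15:102973350-102973434, lies in an intron of a long transcript of Hoxc5. The miR-196b hairpin, at chr6:52230081-52230165 on the minus strand, overlaps an exon of at least 1 transcript of Hoxa9. The 2 miR-10 hairpins are printed because the results turn on them; capitals mark the 5p and then the 3p strand.
Mir10a hairpin: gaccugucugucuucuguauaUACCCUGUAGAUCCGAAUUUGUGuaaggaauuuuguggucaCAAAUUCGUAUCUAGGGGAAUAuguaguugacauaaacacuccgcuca
Mir10b hairpin: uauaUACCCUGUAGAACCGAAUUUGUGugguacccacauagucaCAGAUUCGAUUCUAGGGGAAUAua

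The libraries held 42609845 to 48878003 miRNA counts each. Levels are given in CPM, in which a count is divided by the size of its library, adjusted with TMM factors, which assume that most miRNAs do not change. Mature miRNAs differ little in length (22 or 23 bases in this set) and a read spans the whole molecule, so their levels were compared without a length correction; differences in ligation efficiency between sequences are not corrected. The liver label was checked on the hepatocyte miRNA miR-122-5p, which measured 17376 to 21608 CPM in the 4 libraries, at ranks 11 to 13. Control 1 stood apart in pancreatic miRNAs. The summed level of miR-375-3p, miR-216a-5p and miR-217-5p was 109 CPM there against 8.47 in control 2, 10.5 in TAA 1 and 9.47 in TAA 2. The acinar miRNA miR-217-5p had 125 counts in control 1, 0 in control 2, 6 in TAA 1 and 5 in TAA 2. Fitted values of the members and counts of marker miRNAs are therefore also given without control 1.

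The 6 members differed widely in level, and the order of the leading ones was the same in every library. miR-10a-5p was first, with rank 5 among all 1907 miRNAs in each of the 4 libraries. miR-10b-5p was second, with rank 70 and 80 in the controls and 120 in both TAA libraries. Next came miR-10a-3p, at ranks 210 to 219. These levels did not overlap in any library. miR-196b-5p (0 to 18 counts), miR-10b-3p (0 to 4 counts) and miR-196a-5p (0 to 2 counts) lay at the bottom, and with counts this low their order changed between libraries, miR-196b-5p being the highest of them in 3 libraries and the lowest in control 2.

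**Figure D1:**
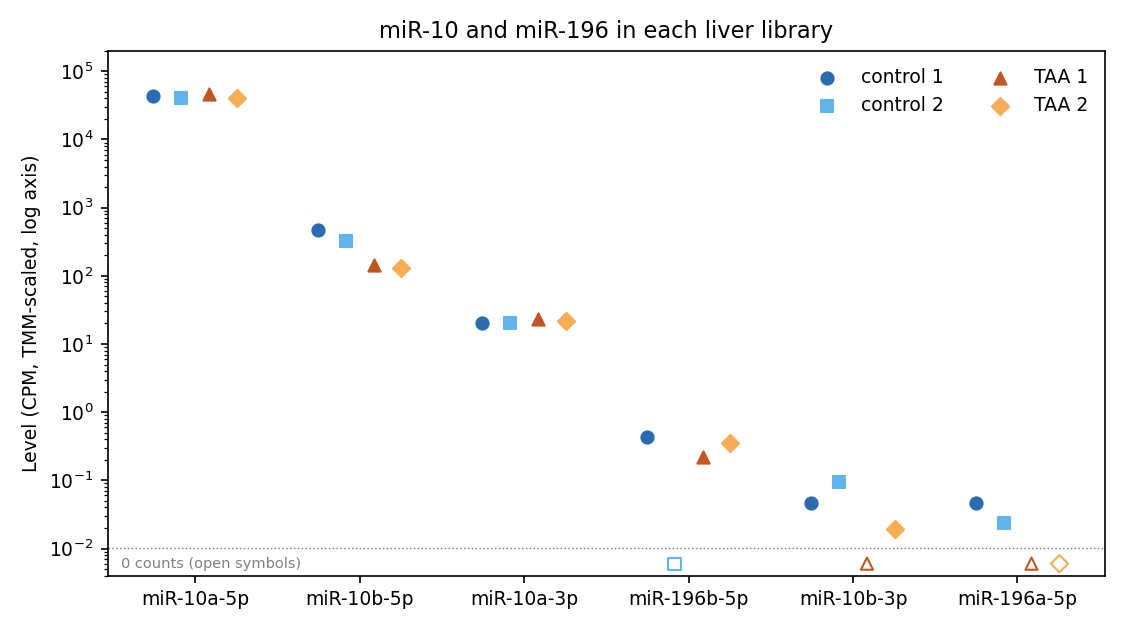
Level of each of the 6 miRNAs in each library (CPM, log axis; each point is 1 library, open symbols below the dotted line are libraries with 0 counts). miR-10b-5p lies at 473 and 321 CPM in the controls and at 143 and 129.5 CPM in TAA-treated liver, while the 4 points of miR-10a-5p lie between 40778 and 46106 CPM.

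miR-10a-5p, the dominant strand of the Hoxb hairpin, did not differ beyond the spread between libraries. It measured 43477 and 40778 CPM in control 1 and 2 and 46106 and 41058 CPM in TAA 1 and 2. The groups overlapped, since TAA 2 lay below control 1. The means were 42127 ± 1909 and 43582 ± 3569 CPM (SD, n = 2 libraries per group), with a log2 fold change of 0.05 (SE 0.10, edgeR adjusted p = 0.840). The sign of that small difference depended on the scaling: it was -0.12 with upper-quartile factors. It also turned to -0.04 without TAA 1 and to -0.00460 without control 2, and was 0.08 without control 1. In shares of all miRNA counts it took 4.32% and 3.77% in the controls against 4.78% and 4.31% after TAA. The 95% Wilson intervals of these shares extend less than 0.01 percentage points, so the spread between libraries is far wider than counting error.

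Its partner strand miR-10a-3p had 846 counts in control 1, 862 in control 2, 1050 in TAA 1 and 1134 in TAA 2. In CPM these were 19.98 and 20.2 against 23.1 and 22.1, so both TAA libraries lay above both controls. The log2 fold change was 0.17 (SE 0.17, edgeR adjusted p = 0.598), which is the size of its own standard error, and with upper-quartile factors it was 0.00074. Without control 1 it was 0.15. In each library the 5p strand outnumbered the 3p strand by a similar factor: 2176 times in control 1, 2022 in control 2, 1996 in TAA 1 and 1857 in TAA 2. The log2 ratio of the strands, which needs no scaling, was 11.03 ± 0.075 in control and 10.91 ± 0.073 in TAA-treated liver (SD, n = 2). Both TAA values lay below both control values, by a difference of means of -0.12. That difference ranged from -0.18 (without control 2) to -0.07 (without control 1) when 1 library was left out.

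miR-10b-5p, the dominant strand of the Hoxd hairpin, was lower in both TAA libraries. Its counts were 20029 in control 1, 13739 in control 2, 6515 in TAA 1 and 6644 in TAA 2, or 473 and 321 CPM against 143 and 129.5 CPM. The TAA libraries lay close together, the controls lay further apart (control 1 was 1.47 times control 2), and the groups did not overlap: the lower control was 2.24 times the higher TAA library. The means were 397 ± 107 and 136 ± 9.78 CPM (SD, n = 2 per group), a 2.91-fold lower level in TAA-treated liver. The fitted log2 fold change was -1.54 (SE 0.19, edgeR quasi-likelihood adjusted p = 0.000666 over the 644 miRNAs tested). Counting error was small beside this, at 0.707% of the count in control 1 and 1.24% in TAA 1.

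The set was picked with this value known, and the count of 1 member of 4 tested as lower is read beside the whole table: 2.64% of the 644 tested miRNAs were called lower and 16.6% in either direction. Nothing is concluded from that count, since the choice of members used the same contrast. Both TAA libraries lay below both controls in 1 of the 4 tested members (miR-10b-5p) against 25.6% of all tested miRNAs, and above both controls in 1 (miR-10a-3p) against 29.7%. The median log2 fold change was 0.11 over the 4 tested members and -0.0042 over all 644. Ordered from the lowest log2 fold change, miR-10b-5p was at rank 7 of the 644 tested miRNAs and at rank 2 of the 273 with a mean of at least 10 CPM. Without control 1 these ranks were 16 of 679 and 2 of 273. Of the 137 miRNAs with a mean of at least 100 CPM, 12, miR-10b-5p included, differed between the 2 controls by at least as much as it did, and the median ratio between the controls was 1.09.

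**Figure D2:**
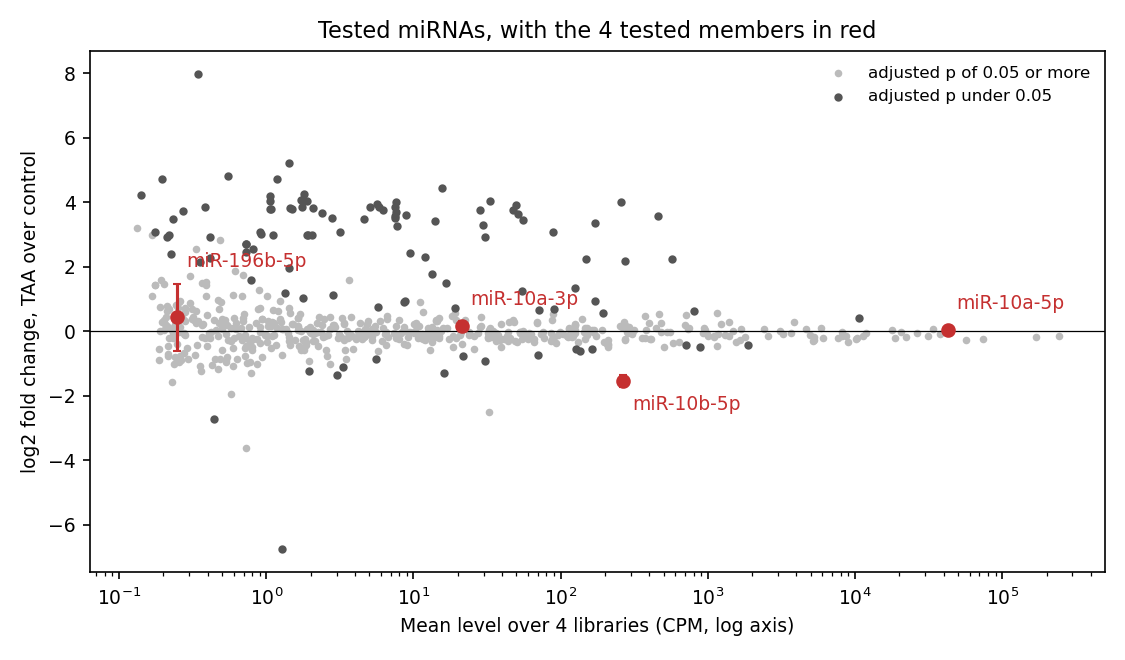
Log2 fold change of TAA over control against mean level (CPM, log axis) for the 644 tested miRNAs; red points are the 4 tested members with their standard errors, dark points had an adjusted p under 0.05. miR-10b-5p stands at -1.54, and miR-10a-5p, at the right, at 0.05.

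Leaving out any 1 library kept the log2 fold change of miR-10b-5p between -1.80 and -1.26, but its call was lost without either TAA library. Without control 1, the library with pancreatic miRNAs, the log2 fold change was -1.26 (SE 0.21), and without control 2 it was -1.80 (SE 0.19). Without TAA 1 it was -1.62 (SE 0.30, adjusted p = 0.0526) and without TAA 2 it was -1.46 (SE 0.29, adjusted p = 0.0609), neither past the threshold of 0.05. In each of these fits a group holds 1 library, which is assumed to vary like the libraries of the other group. Without a TAA library the only replicates were the controls, which lay 1.47-fold apart in miR-10b-5p, against 1.11-fold between the TAA libraries. The part of this spread in the lost call was not tested. With DESeq2 the value was -1.55 (SE 0.22, adjusted p = 4.77e-11). In bulk liver, fewer cells that hold miR-10b and less miR-10b per cell cannot be told apart.

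**Figure D3:**
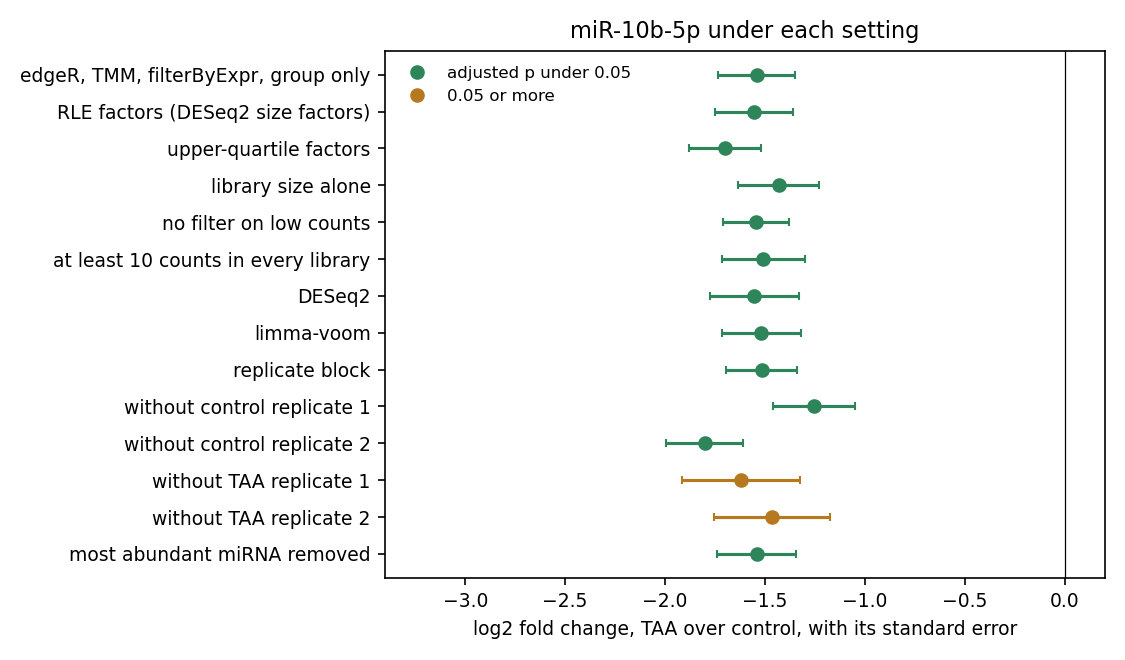
Log2 fold change of miR-10b-5p, TAA over control, under each setting of the analysis (points, with standard errors as bars). All values lie between -1.80 and -1.26; the 2 fits that leave out a TAA library have an adjusted p above 0.05.

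The ratio of the near-identical strands was lower in TAA-treated liver by a similar amount, and it does not depend on scaling. miR-10b-5p counts amounted to 1.09% of miR-10a-5p counts in control 1 and 0.788% in control 2, against 0.311% in TAA 1 and 0.315% in TAA 2. The groups did not overlap, and the TAA libraries were almost equal. The log2 ratio was -6.75 ± 0.33 in control and -8.32 ± 0.015 in TAA-treated liver (SD, n = 2), a difference of -1.56, or 2.96-fold. Without control 1 the difference was -1.33. This ratio shares its numerator with the fold change above and is not a separate observation. How many miR-10b-5p counts are miR-10a-5p reads misread at position 12 was not tested.

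**Figure D4:**
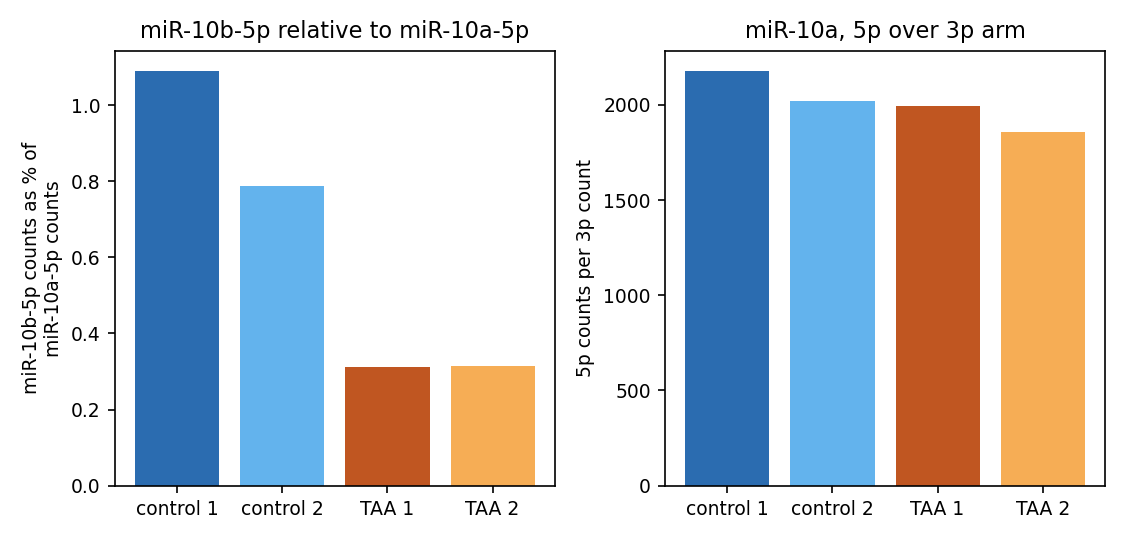
Left, miR-10b-5p counts as a percentage of miR-10a-5p counts in each library; right, miR-10a 5p counts per 3p count (1 bar per library). The left bars are 1.09% and 0.788% in the controls and 0.311% and 0.315% after TAA, while the right bars range from 1857 to 2176.

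miR-10b-5p made up little of the total that carries the shared seed, and that total overlapped between the groups. miR-10a-5p and miR-10b-5p together measured 43950 and 41099 CPM in the controls and 46249 and 41187 CPM in TAA-treated liver. The group means of miR-10b-5p differed by 261 CPM, less than the SD of miR-10a-5p between the 2 controls (1909 CPM). miR-10b-5p contributed 1.08% and 0.782% of the counts with this seed in the controls against 0.310% and 0.314% after TAA.

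The partner strand miR-10b-3p, whose sequence differs from miR-10a-3p at 3 bases, was at the limit of detection. Its counts were 2 in control 1, 4 in control 2, 0 in TAA 1 and 1 in TAA 2, and it did not pass the filter on low counts. A count of 0 allows up to 3 counts, or 0.0660 CPM in TAA 1. The controls lay above the TAA libraries, but at 4 counts or fewer no fold is given. Whether the 3p strand fell with the 5p strand was not detectable at this depth.

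Counts of miR-196 were close to absent from these livers, and the counting of miR-196a-5p, which has 2 loci, is uncertain. miR-196a-5p had 2 and 1 counts in the controls and 0 in both TAA libraries, which allows up to 0.0660 and 0.0585 CPM there; it was not tested, and no fold is given. miR-196b-5p had 18 counts in control 1, 0 in control 2, 10 in TAA 1 and 18 in TAA 2. The controls were thus at both ends of its range, and the groups overlapped. In CPM these are 0.43, 0, 0.22 and 0.35. Its log2 fold change was 0.43 (SE 1.03, edgeR adjusted p = 0.875). That value depended on both controls. Without control 1 the only control had 0 counts, so the fitted log2 fold change of 6.75 is no bound. Without control 2 the log2 fold change was -0.57. The 3p strands of the 3 miR-196 hairpins had 0 counts in all 4 libraries.

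Another miRNA of the Hoxc cluster, miR-615-3p, was listed with them for comparison. Of the 5 other Hox cluster miRNAs listed, 4 had 0 counts throughout (the miR-196 3p strands and miR-615-5p), and miR-615-3p was the only one tested; it was not called in the main analysis. It had 68 counts in control 1 against 9 in control 2, 8 in TAA 1 and 15 in TAA 2, with a log2 fold change of -1.93 (SE 0.85, edgeR adjusted p = 0.206). Control 1 alone was high, and without it the log2 fold change was 0.14. It was called lower with no filter on low counts (-1.93, edgeR adjusted p = 0.00321) and without control 2 (-2.76, adjusted p = 5.81e-06).

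Control 1 was thus the highest library for miR-10b-5p and miR-615-3p, and had more miR-196b-5p counts than control 2. It was also the library with pancreatic miRNAs, in which miR-375-3p measured 103 CPM against 8.47 in control 2. Of the 644 tested miRNAs, 4 reached 1 CPM in control 1 and were at least 4 times higher there than in control 2: miR-375-3p, miR-216a-5p, miR-615-3p and miR-6238, a list drawn up after the values were seen. The part of the tissue that carries pancreatic miRNAs in the levels of miR-10b-5p, miR-196b-5p and miR-615-3p in control 1 was not tested.

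**Figure D5:**
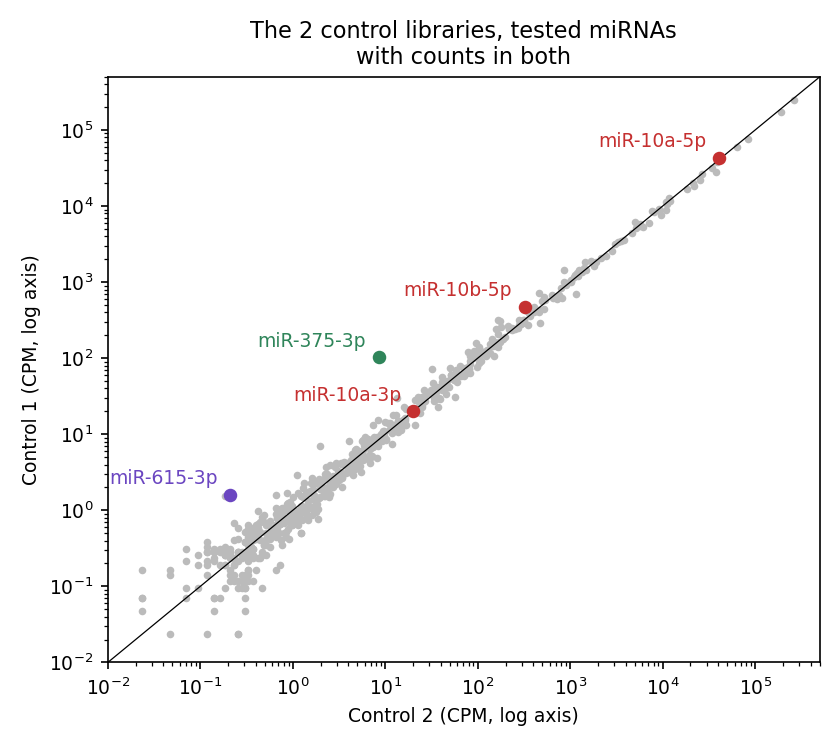
Level in control 1 against control 2 (CPM, log axes) for the 632 tested miRNAs with counts in both; the line marks equal levels. miR-375-3p (103 against 8.47 CPM) and miR-615-3p (1.61 against 0.21 CPM) lie far above the line, miR-10b-5p (473 against 321 CPM) slightly above it, and miR-10a-5p close to it.

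The relatives of miR-10 outside the Hox clusters, miR-99 and miR-100, are given beside it; their difference from miR-10b-5p was not tested. Their 5p strands are shown because their shared seed, in capitals, is similar to that of miR-10 without being the same. The capital outside the seed marks the single base that separates miR-99a-5p from miR-100-5p (U16A).
miR-99a-5p: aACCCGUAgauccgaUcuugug
miR-99b-5p: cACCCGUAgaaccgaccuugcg
miR-100-5p: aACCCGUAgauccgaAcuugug
All 6 strands of these 3 hairpins were tested; 1 was called higher and 0 lower, beside 14.0% and 2.64% of all tested miRNAs, so the absence of a lower call among 6 is near the background. Their median log2 fold change was 0.08. The 1 called was miR-99b-5p, at 9058 and 9166 CPM in the controls and 13044 and 11287 CPM after TAA, with a log2 fold change of 0.42 (SE 0.11, edgeR adjusted p = 0.0310). It was not called with upper-quartile factors (adjusted p = 0.282), without TAA 1 (0.335) or without TAA 2 (0.0832); without control 1 it was at 0.39 (0.0427). miR-100-5p measured 5101 and 5096 CPM against 5427 and 4039 CPM, which overlap.

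Markers of other cells were counted beside miR-10b-5p, against a background of 14.0% of tested miRNAs called higher and 2.64% called lower. The summed CPM of the 5 leukocyte miRNAs was 874 and 1384 in the controls against 1850 and 1628 after TAA, and 2 of the 5 were called higher. The 3 erythroid miRNAs summed to 79.9 and 38.1 against 112 and 448 CPM, with all 3 called higher. The 5 epithelial miRNAs of bile duct are of the miR-200 family, miR-141-3p included. They summed to 387 and 428 against 360.2 and 333 CPM, and 2 were called lower. The 4 hepatocyte miRNAs (273645 and 297072 against 251687 and 259292 CPM), the 5 mesenchymal miRNAs (27759 and 28077 against 31605 and 23349 CPM, most of it miR-143-3p) and the 2 endothelial miRNAs (25346 and 29185 against 26409 and 22655 CPM) had 0, 1 (higher) and 0 members called. The mesenchymal miRNA called was miR-214-3p, at 59.3 and 50.9 against 96.0 and 77.1 CPM. miR-199a-3p, at 641 and 523 against 947 and 714 CPM, was not called (edgeR adjusted p = 0.0842), although both TAA libraries lay above both controls. The remaining mesenchymal miRNAs were not called, and their groups overlapped. miR-145a-5p was at 307 and 175 against 197 and 166 CPM, a log2 fold change of -0.41. That of miR-143-3p was -0.04 and that of miR-199a-5p was 0.26. The 4 muscle miRNAs summed to 3.80 and 4.91 against 2.71 and 3.10 CPM, and the single one tested was not called, nor was either of the 2 pancreatic miRNAs tested. None of these markers was at 0 in all libraries. Without control 1, 2 leukocyte, 3 erythroid and 2 mesenchymal miRNAs were called higher and 1 epithelial miRNA lower, beside 13.7% and 4.27% of the 679 miRNAs then tested; the single muscle miRNA tested was then called lower. The part of these markers in the lower miR-10b-5p was not tested.

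The miRNAs whose pattern over the 4 libraries was closest to each member were found by the root-mean-square difference of centred log2 CPM, among the 272 other tested miRNAs with a mean of at least 10 CPM. The nearest to miR-10b-5p was miR-871-3p, at a difference of 0.23, with 23.0 and 22.7 CPM in the controls and 9.37 and 9.40 CPM in TAA-treated liver. Next came the hypoxia-responsive miR-210-3p, at 0.40, and miR-676-5p at 0.41. All 3 were lower in both TAA libraries, but their controls lay closer together than those of miR-10b-5p. miR-10a-5p was matched by miR-500-3p (0.00357), miR-331-3p (0.027) and miR-425-3p (0.031), and miR-10a-3p by miR-532-5p (0.014), miR-181c-3p (0.035) and miR-450a-5p (0.041). Without control 1 the nearest were still miR-871-3p (0.063), miR-500-3p (0.00403) and miR-532-5p (0.015), while the next for miR-10b-5p were miR-141-3p (0.16) and miR-210-3p (0.20). These values describe likeness of level over 4 or 3 libraries only.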

How the data were processed

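Small RNA libraries (TruSeq) from total liver RNA were analysed, 2 control and 2 TAA. Each deposited file lists the raw count of each mature miRNA in 1 library; the authors used Bowtie, HTSeq and mm10, per the submitters' processing notes. The sources used here do not give trimming, mismatches, annotation release or versions. The row for multiply aligned reads is 0 in all files, so the counting of miR-196a-5p, which has 2 loci, is uncertain. The 5 summary rows of each file were left out; reads outside miRNAs were 22.8% to 26.4% and unaligned reads 7.11% to 8.49% of all reads. miRNA counts made up 65.4% to 68.7%. With TMM factors, 1 CPM is 42.3 to 51.3 counts. Intervals cover counting error only, since no molecular identifiers are stated.

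The count test was edgeR's (version 4.0.16, in R 4.3.3) quasi-likelihood F test after filterByExpr and TMM (Benjamini-Hochberg over 644 miRNAs, threshold 0.05). The standard error is the log2 fold change divided by the square root of F. Ratios are log2 of counts plus 0.5. Likeness added 0.01 CPM before logs. Replicates differed beyond read-sampling noise (chi-square per degree of freedom 237 and 324). Members, lists and the naming rule (all members, the fixed lists, the 3 most alike miRNAs of each member of at least 10 CPM) were chosen with earlier results of these data known. Alternatives used limma 3.58.1, DESeq2 1.42.0, other factors and filters, a replicate block and leaving out each library. The exact permutation test of 2 against 2 libraries cannot go below p = 0.333 (two-sided) and was not used.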

Additional observations from a re-analysis of the deposited data

How the results depend on the processing

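miR-10b-5p was lower in TAA-treated liver in the main analysis and all 13 alternatives, with log2 fold changes from -1.80 to -1.26, and past the threshold in 11; the exceptions leave out a TAA library. With the replicate block, which treats equally numbered libraries as pairs, it was -1.52 (adjusted p = 3.17e-05) and 110 miRNAs were called against 107. Deviations of equally numbered libraries correlated at -0.0015, so the numbers were not taken to pair libraries. Of the 4 members tested 1 was called, beside 16.6% of all 644 tested miRNAs. That count changed without control 1 and without either TAA library, in fits where a group holds 1 library. The count over all miRNAs ranged from 49 to 131 when a library was left out, and was 48 with at least 10 counts in every library, where 532 were tested. Upper-quartile factors shifted the median of all miRNAs by -0.17 (72.2% of calls higher, against 84.1%) and library size alone by 0.12.

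Signs turned under some settings, and the cause was not tested for the fits that leave out 1 library. Upper-quartile factors shifted the median of all miRNAs by -0.17. With them, miR-10a-5p was at -0.12 (0.049 in the main analysis), miR-99a-5p at -0.11 (0.066) and miR-99a-3p at -0.085 (0.093). Library size alone shifted the median by 0.12, and miR-100-5p was then at 0.012 (-0.11 in the main analysis). Over the fits that leave out 1 library, miR-10a-5p ranged from -0.040 to 0.14, miR-196b-5p from -0.57 to 6.75 (control 2 has 0 counts, so this is no bound), miR-615-3p from -2.76 to 0.14, miR-99a-5p from -0.048 to 0.17, miR-99a-3p from -0.071 to 0.24, miR-100-5p from -0.34 to 0.095 and miR-100-3p from -1.43 to 0.39. The log2 ratio of miR-10b-5p over miR-10b-3p, TAA minus control, was 0.62, -0.80 with a pseudocount of 5 and -0.16 to 1.40 without 1 library, since 3p counts were at most 4. Depth limits miR-10b-3p, miR-196a-5p and miR-196b-5p.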
